A study of Danio rerio with 68 samples.

Results

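The genes described here are 10 members of the interferon regulatory factor and signal transducer families, irf1b, irf2, irf3, irf5, irf7, irf8, irf9, stat1a, stat1b and stat2. They were taken by gene symbol from a table of 32677 genes measured by RNA-seq in brain, liver and skin of zebrafish. The spelling matched exactly for 8 of the 10. The other two are listed as IRF2 (2 of 2) and IRF3, and the bracket of the first marks a similar gene copy with which reads could have been shared. The Ensembl identifier of the row called irf1b, ENSDARG00000032768, has no entry in the name table used here, which gives the name irf1b to another identifier, one that the counts table calls TXNDC15. All values of irf1b below are those of the authors' irf1b row, and which gene that row holds under current names was not settled. All 10 genes had counts in all 68 libraries, and all 10 passed the filter on low counts in every tissue.

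Interferons are secreted when sensors of foreign or misplaced nucleic acid activate Irf3 and Irf7, which then switch on interferon genes. Interferon bound to its receptor activates Janus kinases, and these phosphorylate proteins of the Stat family. Phosphorylated Stat2 acts with Irf9 in a complex that enters the nucleus and induces antiviral genes, among them several of the genes that encode the pathway itself. Activation is by phosphorylation, which RNA-seq does not measure.

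The fish were males of 12 or 36 months from tanks that received 3.75 nM rotenone, an inhibitor of mitochondrial complex I, or the solvent DMSO for 3 or 8 weeks. Sample labels give the treatment of controls as none, and the protocol gives them DMSO. Rotenone was given at 36 months only. Brain and skin each came from 3 fish of 12 months on DMSO for 3 weeks and 3 for 8 weeks, 3 and 4 fish of 36 months on DMSO, and 5 and 6 fish of 36 months on rotenone. Liver came from 2, 3, 2, 3, 4 and 6 fish of the same groups. The strain and the number of tanks are not given, so a p-value here sets a difference against fish-to-fish spread only. Fish of the 2 ages were different cohorts, so that age cannot be told apart from stock or rearing. In such tissue samples, a change in the share of a cell type and a change in RNA per cell cannot be told apart either.

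Libraries are named as in the labels, by tissue and fish (brain161). Total counts, in units of M (mega), were 24.1 to 54.9 over 24 brains, 28.7 to 47.3 over 20 livers and 24.3 to 34.4 over 24 skins. Genes are described as called, or as having passed, where p from edgeR's quasi-likelihood test stayed under 0.05 after Benjamini-Hochberg adjustment over all genes tested. Levels are in CPM, counts scaled to library size by TMM within a tissue, and the number after ± beside a log2 fold change is its standard error. Earlier work on these data set 5 libraries apart. liver188, a 36-month control at 8 weeks, had a summed level of 6764 CPM for 6 intestine markers, against 4.69 to 723.9 CPM in the other livers, and its summed level of 10 hepatocyte markers was the lowest of all livers at 26290 CPM. skin158 and skin162, controls at 3 weeks, had 657.9 and 280.8 CPM for 9 germ cell markers, and skin162 also had 97930 CPM for 12 skeletal muscle markers. The others were brain170 and brain171, treated for 3 weeks, in which earlier work found counts falling with transcript length.

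By medians of the deposited RPKM, which scales counts to gene length and library size, the members in 12-month controls were highest in skin. Other than stat1a and irf8 they were lowest in brain, though irf9 was at 6.98 RPKM there and 7.015 in liver, with overlapping ranges. The order of skin and liver depends on the scaling, since with TMM only irf5 was called higher in skin, as given below. In brain stat1a led with a median of 34.4 RPKM (32.7 to 37.2 over 6 fish). The next gene there was irf9 at 6.98 RPKM (6.55 to 10.005), and the ranges of stat1a and irf9 did not overlap. From irf9 down to irf7 in brain each gene's range overlapped that of the next, through irf1b at 6.37, stat2 at 5.91, irf8 at 5.47, irf2 at 3.15 and irf7 at 2.77 RPKM. A gap then separated irf7 from irf5, stat1b and irf3, which had medians of 1.28, 1.09 and 1.07 RPKM and overlapping ranges. In skin the medians ran from 50.4 RPKM for stat1a through irf1b (33.5), stat2 (30.4), irf2 (24.8), irf7 (24.7), irf9 (21.2), stat1b (13.4), irf5 (9.69) and irf8 (7.69) to irf3 at 4.81 RPKM. No neighbours in the order of skin or of liver had ranges that were apart. In liver stat2 led at 19.6 RPKM and stat1a came next at 16.7, and irf5 came last at 1.52 RPKM over 5 fish.

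**Figure D1:**
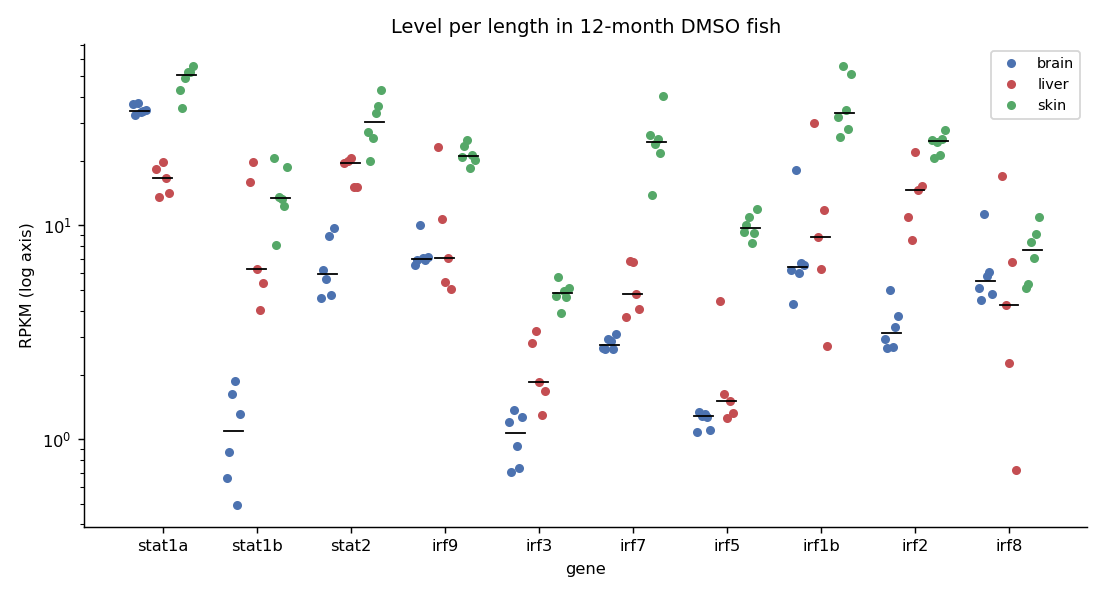
Deposited RPKM (log axis) of the 10 genes in 12-month DMSO fish of both sampling times, with 1 point per library, a black line at the median and colours for brain (6 fish), liver (5) and skin (6). stat1b in brain, at 0.494 to 1.87 RPKM, lies below all liver and skin values of the same gene.

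Contrasts between tissues came from a fit of all libraries scaled by TMM, which took tissues of the same fish as independent. They put 9 of 10 members lower in brain than in liver, where 33.8% of all genes were called lower. The same number, 9, were higher in skin than in brain, where 36.9% of genes were called higher. Between skin and liver 1 member was called, irf5, which was higher in skin by 1.05 ± 0.17 on the log2 scale, beside 36.1% of genes called higher. The largest contrast was that of stat1b, at -4.68 ± 0.73 for brain minus liver (adjusted p = 1.22e-07) and 3.99 ± 0.70 for skin minus brain (adjusted p = 1.34e-06). The exception in brain and liver was stat1a, whose difference of -0.47 ± 0.22 missed the threshold (adjusted p = 0.0549) and became 1.09 (adjusted p = 5.71e-05) when libraries were scaled by total counts only, as RPKM is. The other exception was irf8, which did not differ detectably between skin and brain (0.57 ± 0.39, adjusted p = 0.192). With total counts only, 6 members in place of 9 were called lower in brain than in liver and 1, stat1a, was called higher. The calls of irf1b (-0.57, adjusted p = 0.277) and irf7 (-0.90, 0.127) were lost, and irf8 went from -1.41 ± 0.42 to 0.08. In skin minus brain stat1a lost its call (0.44, adjusted p = 0.0695), which left 8. With the same scaling irf2, irf3 and irf9 in skin minus liver went from -0.38, -0.16 and -0.13 to called rises of 0.89, 1.14 and 1.11.

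Among controls, 36-month brains had higher levels of stat1b, stat2, irf9, irf7 and irf1b. Levels of stat1b were 2.96, 3.84 and 7.22 CPM in 12-month brains at 3 weeks and 8.44, 2.26 and 5.98 CPM at 8 weeks. At 36 months they were 32.6, 122 and 13.8 CPM at 3 weeks and 186.9, 197, 15.03 and 14.5 CPM at 8 weeks. All 7 brains of 36 months were above all 6 of 12 months, and 3 of the 7 (brain161, brain185 and brain186) were above 100 CPM. Pooled over both times, stat1b was higher by 3.90 ± 0.90 on the log2 scale (edgeR adjusted p = 0.0253).

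stat2 was at 30.1 to 64.9 CPM in the 12-month control brains, with a median of 36.5 at 3 weeks and 59.3 at 8 weeks. At 36 months it was at 194, 254 and 77.5 CPM at 3 weeks and at 333, 334, 70.6 and 77.1 CPM at 8 weeks. The ages did not overlap, and the same 3 brains were the highest, followed by brain160. On the log2 scale stat2 was higher by 2.14 ± 0.48 (edgeR adjusted p = 0.0237). irf9, which encodes the DNA-binding partner of Stat2, had the smallest p of the members. Its levels were 11.9, 12.4, 17.97, 13.0, 12.8 and 13.1 CPM at 12 months against 26.9, 24.3 and 30.2 CPM at 3 weeks and 29.4, 28.6, 27.1996 and 17.9 CPM at 8 weeks at 36 months. The rise of 0.97 ± 0.17 (edgeR adjusted p = 0.00535) was shared by fish with low and with high stat1b, and brain188 alone fell just short of the highest 12-month value.

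Of the upstream factors, irf7 was at 4.78 to 5.75 CPM in all 6 control brains of 12 months. At 36 months it was at 12.21, 48.7 and 12.04 CPM at 3 weeks and at 58.7, 58.2, 8.27 and 7.77 CPM at 8 weeks, with no overlap of the ages. For irf7 the log2 fold change was 2.46 ± 0.60 (edgeR adjusted p = 0.0345). irf1b, a factor that responds to interferon gamma in mammals, was at 7.99 to 33.6 CPM in 12-month brains, with brain159 far above the rest, whose highest was 12.8. At 36 months it was at 45.1, 42.4 and 60.6 CPM at 3 weeks and 42.9, 54.7, 58.6 and 32.5 CPM at 8 weeks. These fish were at a similar level whatever their stat1b, and only brain188 reached down to brain159. For irf1b it was 1.71 ± 0.38 on the log2 scale (edgeR adjusted p = 0.0213).

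With irf9, stat1b, stat2, irf7 and irf1b, 5 of 10 members were called higher with age in brain, where 1.4% of all genes were. The others missed the threshold with log2 fold changes of 1.75 ± 0.47 for irf3 (adjusted p = 0.0611), 0.63 ± 0.17 for irf2, a factor that opposes Irf1 in mammals (adjusted p = 0.0597), 0.43 ± 0.12 for stat1a (0.0851), 0.89 ± 0.27 for irf8 (0.101) and 0.47 ± 0.16 for irf5 (0.17). All 10 were above 0, with a median of 1.34 beside 0.00965 over all genes. Without any single one of the 6 brains of 12 months, irf7, stat1b and stat2 missed the threshold, with adjusted p from 0.0507 to 0.104. irf1b was lost without any of these but brain159, and without brain159 it stayed called while irf2 (adjusted p = 0.0163) and irf8 (0.0307) were gained. Without brain161 irf7, stat1b and stat2 were lost (0.0545 to 0.0993), without brain162 irf1b (0.0517) and without brain185 or brain186 irf7 (0.0695 in both cases), while irf3 was gained without brain187 (0.043) and irf3 and stat1a without brain188 (0.0407 and 0.0377). irf9 was the only member called whichever library was left out. DESeq2 called 9 members and voom with quality weights all 10.

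Markers of other cells moved in the same comparison, where 1.4% of all genes were called higher and 0.573% lower. Of 12 tested T and NK cell markers 6 were called higher in 36-month brains, and their summed level was 79.5 to 123.2 CPM against 54.4 to 96.7 CPM at 12 months. Of 7 leukocyte markers 1 was higher (127.1 to 238.5 CPM against 103.5 to 203.7), of 18 macrophage and microglia markers 2 were higher and 1 lower (428 to 628.5 CPM against 445.9 to 583), and of 7 B cell markers none passed. The summed level of the B cell markers, at 10.2 to 13.8 CPM in 36-month brains and 8.24 to 9.80 CPM at 12 months, did not overlap between ages. Of 10 brain markers and 5 endothelial markers none passed. At 8 weeks both sums were lower at 36 months with no overlap, at 11440 to 19010 CPM against 23050 to 23950 CPM for brain and 174 to 220.9 CPM against 241.3 to 279 CPM for endothelium, and at 3 weeks the ages overlapped. Their part in the members' differences was not tested.

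**Figure D2:**
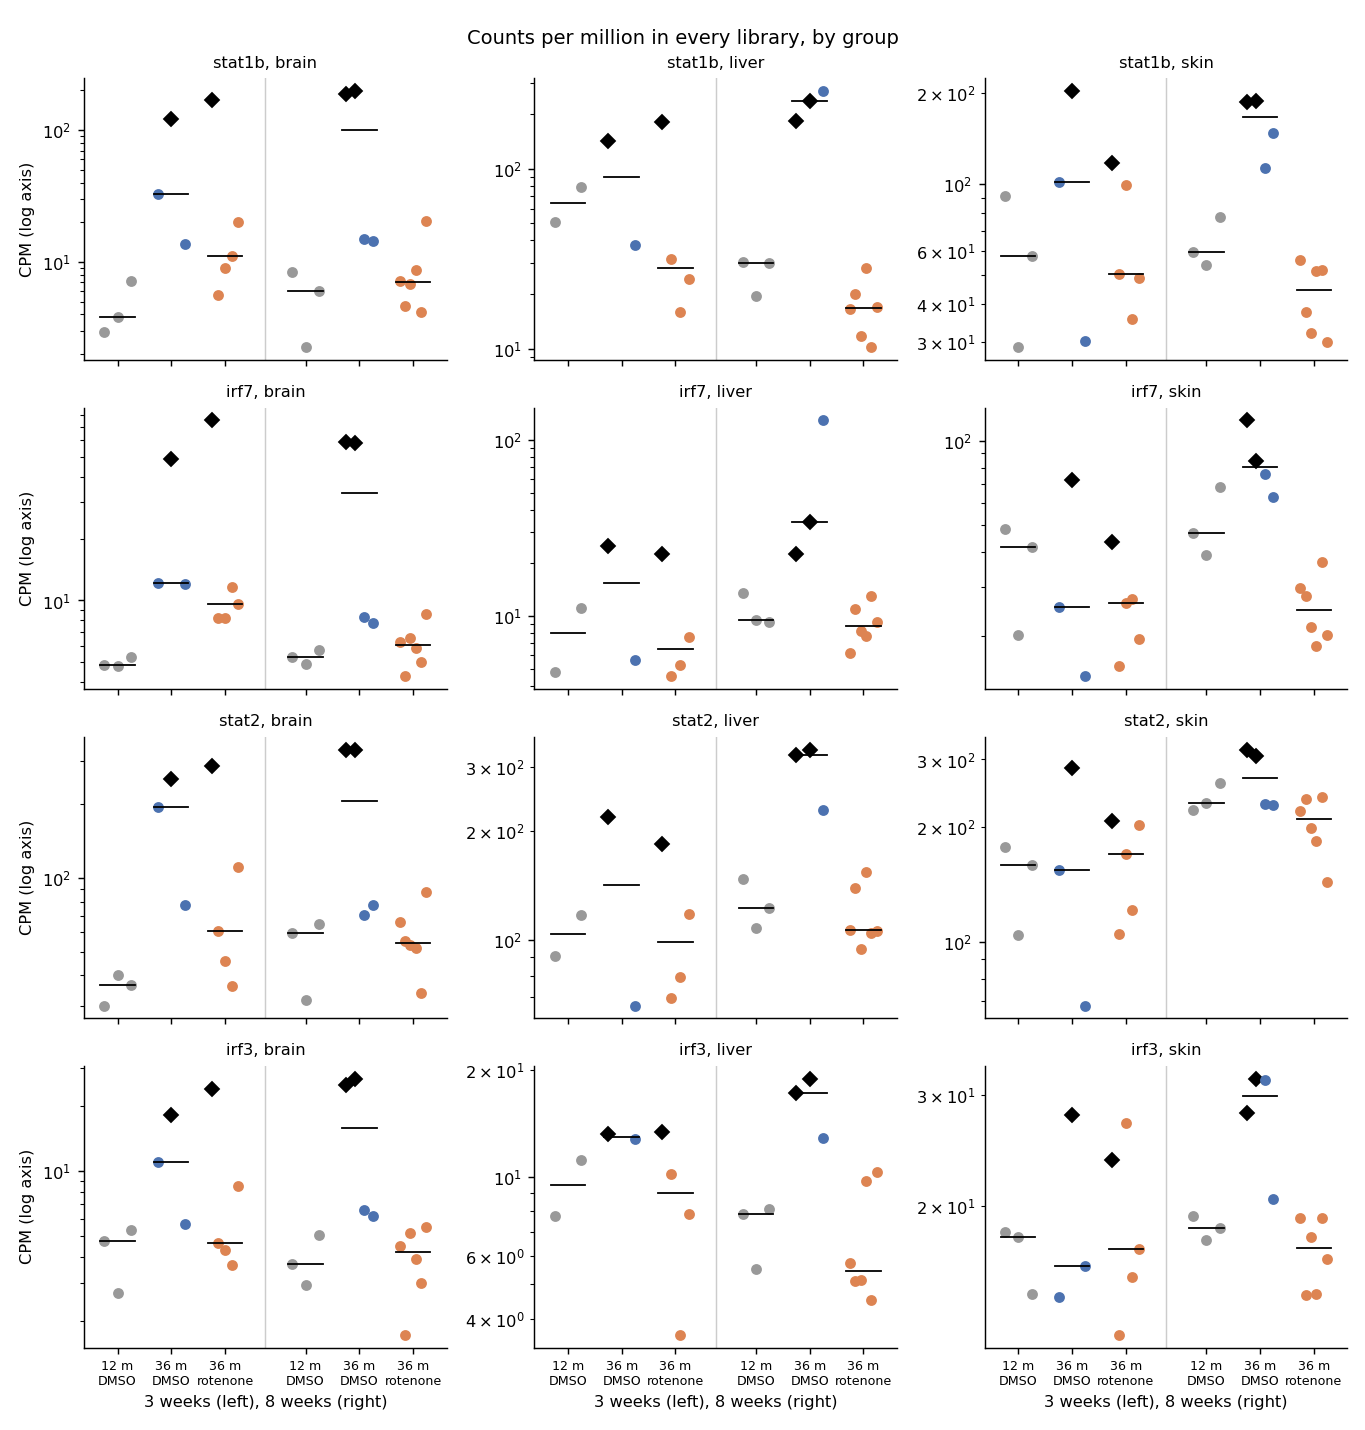
CPM of stat1b, irf7, stat2 and irf3 (log axis, scale set for each panel) in every library, by group and tissue, with 3 weeks left of the grey line and 8 weeks right of it. Circles are single fish, black diamonds the fish of brain161, brain168, brain185 and brain186, and lines the group medians. In brain the diamonds lie at 122 to 197 CPM of stat1b and all circles at or under 32.6.

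The spread among 36-month brains was itself large. For stat1b and irf7, 4 of the 24 brains stood clear of the others, brain161, brain185 and brain186 among the controls and brain168 among those given rotenone for 3 weeks. The 4 brains had 122, 186.9, 197 and 170 CPM of stat1b, and the next highest, brain160, had 32.6 CPM. They had 48.7, 58.7, 58.2 and 75.01 CPM of irf7, and the next highest, brain160 again, had 12.21 CPM. They were also the highest 4 brains for irf3, whose product acts upstream of interferon, at 18.3, 24.9, 26.7 and 24.1 CPM against at most 10.98 CPM elsewhere, and for stat2, at 254, 333, 334 and 286 CPM against at most 194 CPM. For irf9, irf1b, irf8 and irf5 the same 4 brains lay among other 36-month brains. Since the members' own levels set these fish apart, log2 fold changes without them are given with no test. With age in brain they were 1.86 in place of 3.90 for stat1b, 0.93 in place of 2.46 for irf7, 1.22 in place of 2.14 for stat2 and 0.83 in place of 1.75 for irf3, but 0.90 in place of 0.97 for irf9 and 1.73 in place of 1.71 for irf1b. For stat1a the value was 0.21 in place of 0.43, for irf2 0.54 in place of 0.63, for irf5 0.34 in place of 0.47 and for irf8 0.90 in place of 0.89.

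**Figure D3:**
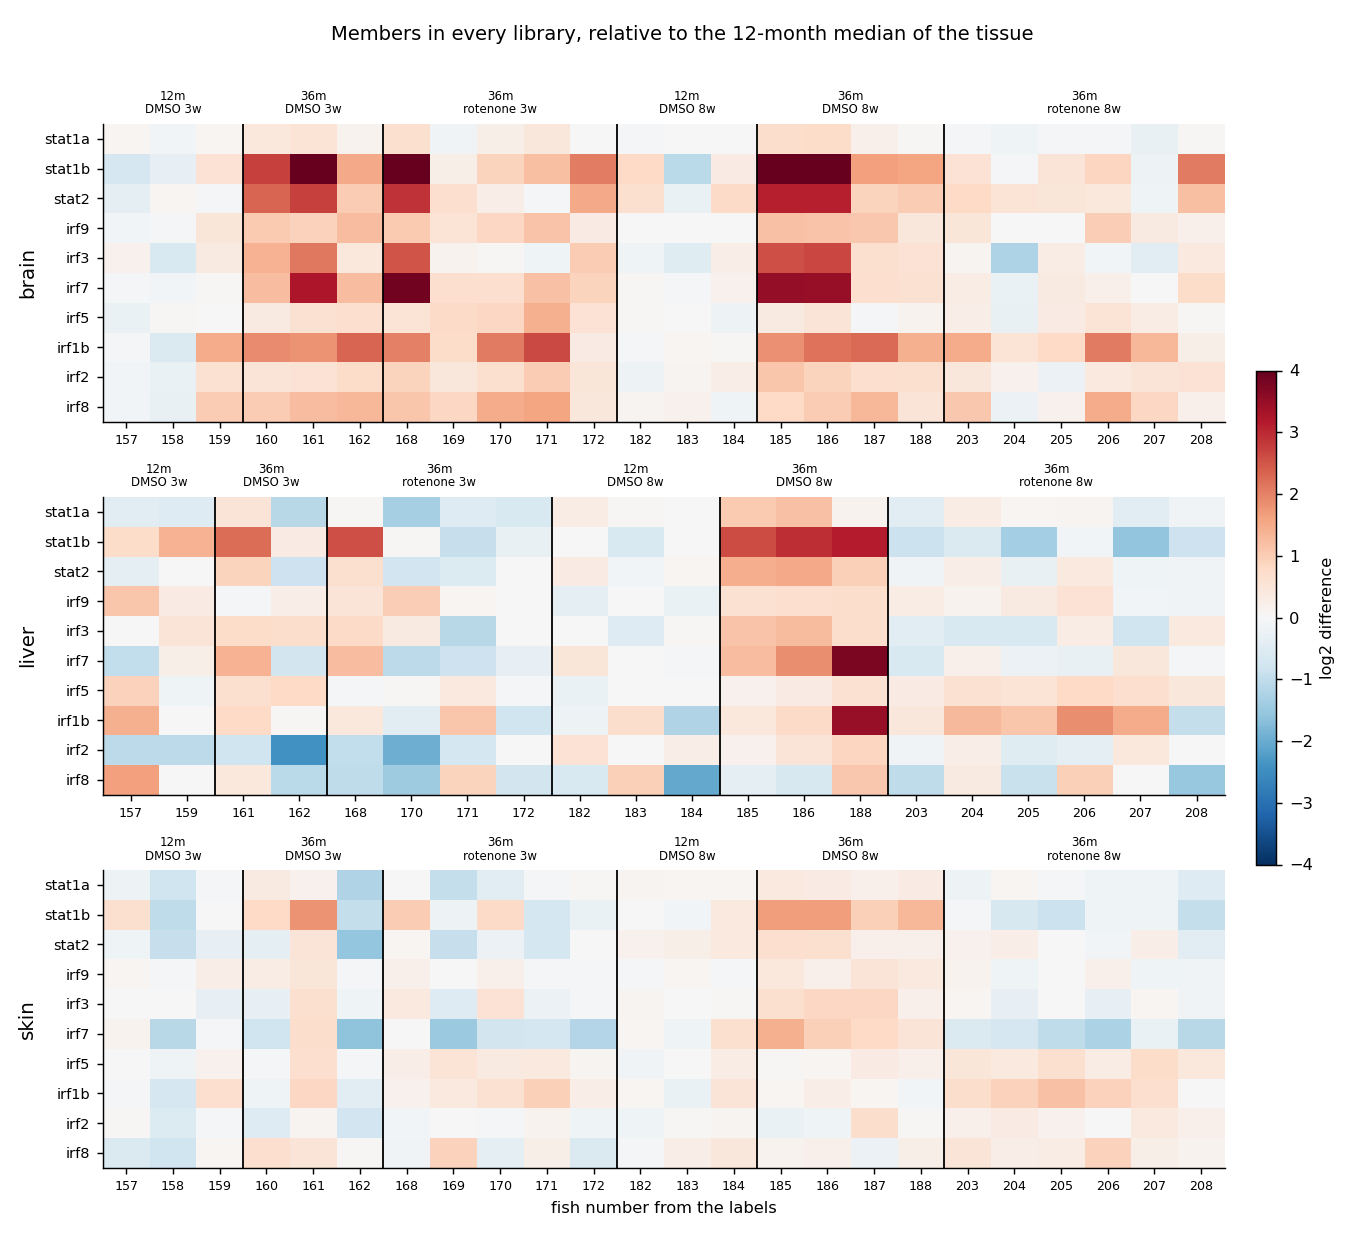
Log2 CPM of the 10 genes in each library, as the difference from the median of 12-month controls of the same tissue, in columns of single fish grouped by age, treatment and time. Red is above that median and blue below it, with colours capped at 4 either way. The dark columns in brain are brain161, brain168, brain185 and brain186, and in liver liver188 is dark for irf7 (130 CPM) and irf1b (166 CPM).

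In liver and skin no member was called with age. The shares of genes called higher were 0.5% in liver and 1.15% in skin. At an unadjusted edgeR p under 0.05 there were 4 members beside 3657 of 20190 genes in liver, and 3 beside 4799 of 22682 genes in skin. The largest log2 fold changes were those of stat1b, at 1.79 ± 0.57 in liver (adjusted p = 0.126) and 1.11 ± 0.36 in skin (0.0871), and of irf7 in liver, at 1.74 ± 0.55 (0.124). For irf7 in liver it was 1.01 without liver161 (adjusted p = 0.349) and 1.15 without liver188 (0.206). For stat1b it was 1.16 in liver without liver161 (0.312) and 0.73 in skin without skin161 (0.227). DESeq2 called stat1b and irf7 in liver (adjusted p = 0.0313 and 0.0327) and stat1b and irf9 in skin (0.0281 and 0.0455). In the fit that took tissues of the same fish as independent, the difference between tissues was tested directly. It was called for 1 member, irf9, whose change with age was lower in liver than in brain by -0.94 ± 0.24 (adjusted p = 0.026). The separate fits of each tissue gave irf9 0.11 ± 0.21 in liver and 0.97 ± 0.17 in brain. The difference missed the threshold without liver157 (-0.75, adjusted p = 0.111) and with total counts only (-0.91, 0.0698). Without liver161 irf2 was called as well (-1.33, 0.0246). Between liver and brain 1.67% of genes differed, between liver and skin 1.77% and between skin and brain 0.226%. The change of stat2 in skin minus brain, at -1.91 ± 0.50, missed the threshold (adjusted p = 0.0944) and passed with the fish as a block (0.0453).

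After 3 weeks of rotenone no member was called in any tissue, and neither was any other gene (0% in brain, liver and skin by edgeR). At unadjusted p under 0.05 edgeR had 2941, 970 and 2281 genes in brain, liver and skin, of which 0, 1 and 0 were members, the 1 being irf5 in liver, an activator of inflammatory genes in mammalian macrophages. DESeq2 and voom called no member either. The 3 control brains and 5 treated brains each held 1 fish with high stat1b (brain161 and brain168). The treated brains had 170, 5.6, 9.03, 11.1 and 19.9 CPM of stat1b, and the log2 fold change was -0.39 ± 1.002 with a 95% interval of -2.49 to 1.72. Without the 4 brains named above it was -0.996, with no test. In liver the values were 142 and 37.7 CPM in controls and 181, 31.5, 15.9 and 24.5 CPM with rotenone, and the log2 fold change was -0.51 ± 0.73 (interval -2.08 to 1.05). In skin they were 101, 202.8 and 30.2 CPM in controls and 118, 50.5, 99.4, 35.7 and 49.0 CPM with rotenone, with -0.66 ± 0.45 (interval -1.61 to 0.29). Groups overlapped in all 3 tissues, and the intervals held 0 in each.

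After 8 weeks of rotenone stat1b, irf7 and irf3 were lower in liver and in skin, together with stat2 in liver and irf9 in skin. In liver stat1b was at 183.97, 237 and 269 CPM in the controls and between 10.2 and 28.0 CPM, with a median of 16.8, in 6 treated fish. The groups did not overlap, and the control values lay far above those of 12-month livers of that time (30.3, 19.7 and 30.0 CPM). The log2 fold change was -3.74 ± 0.60 (edgeR adjusted p = 0.00308), which is 13.3-fold lower. stat2 was at 324, 335 and 228 CPM in the controls and at 94.7 to 154 CPM with rotenone (median 106.6), again with no overlap. It fell by 1.33 ± 0.33 on the log2 scale (edgeR adjusted p = 0.0226).

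In the same livers irf7 was at 22.5, 34.3 and 130 CPM in the controls and at 6.17 to 13.0 CPM with rotenone (median 8.72). The groups did not overlap, and 1 control, liver188, was far above the other two. The log2 fold change was -2.75 ± 0.56 (edgeR adjusted p = 0.00972), and -1.64 without liver188 (adjusted p = 0.0969). irf3 was at 17.2, 18.8 and 12.8 CPM in the controls and at 4.52 to 10.3 CPM with rotenone (median 5.44). It fell by 1.27 ± 0.33 on the log2 scale (edgeR adjusted p = 0.0291), and missed the threshold with the groups compared fitted alone (-1.28, adjusted p = 0.0527).

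These 4 members of 10 were called lower in liver beside 5.19% of all genes. The other members were at -0.92 ± 0.33 for stat1a (adjusted p = 0.0969), -1.14 ± 0.66 for irf1b, -0.55 ± 0.36 for irf2, -0.46 ± 0.23 for irf9, -0.33 ± 0.70 for irf8 and 0.19 ± 0.21 for irf5, and none of these passed. The median was -1.03 beside -0.0339 over all genes. With voom stat1a was called lower (-1.21, adjusted p = 0.00214). Without liver188 irf1b was at 0.49, stat1b at -3.62 (adjusted p = 0.0072), stat2 at -1.49 (0.0291) and irf3 at -1.42 (0.0362). Without the control liver186 stat2 (0.0616) and irf3 (0.0841) missed the threshold, and irf3 also did so without the control liver185 (0.0553) or the treated liver203, liver205 or liver207 (0.0542, 0.0523 and 0.0603). The intestine markers, 6764 CPM in liver188 and 5.02 CPM in the lowest control, were at 7.79 to 23.3 CPM in treated livers, and 5 of 6 were called lower. Summed levels of 10 hepatocyte markers were 26290 to 181500 CPM in controls and 145400 to 245200 CPM with rotenone. Those of 10 pancreas markers were 1229 to 4699 CPM in controls and spread from 143.5 to 58080 CPM with rotenone. Of 16 macrophage markers 1 was called lower (274 to 2138 CPM in controls and 699 to 1463 CPM with rotenone), and of 9 skin markers 2 were lower. Of 5 endothelial markers 2 were called higher, beside 2.17% of all genes. The part of these in the other members' differences was not tested.

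In skin at 8 weeks stat1b was at 186.7, 188.4, 113 and 148 CPM in the controls and at 29.9 to 56.1 CPM with rotenone (median 44.6). The groups were well apart, and 12-month skins of that time had 59.6, 53.9 and 77.6 CPM. The log2 fold change was -1.88 ± 0.40 (edgeR adjusted p = 0.0118). irf7 was at 118, 84.8, 76.0 and 62.6 CPM in the controls and at 18.4 to 36.9 CPM with rotenone (median 24.7), with no overlap. It fell by 1.73 ± 0.36 on the log2 scale (edgeR adjusted p = 0.01). irf3 was at 28.1, 31.9, 31.7 and 20.5 CPM in the controls and at 14.4 to 19.1 CPM with rotenone, a log2 fold change of -0.73 ± 0.20 (edgeR adjusted p = 0.0384). irf9 was at 48.1, 41.3, 51.6 and 46.9 CPM in the controls and at 31.7 to 41.2 CPM with rotenone, a narrow gap with a log2 fold change of -0.41 ± 0.11 (edgeR adjusted p = 0.0416).

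These 4 of 10 members were called lower in skin beside 2.33% of all genes. Others lay on both sides of 0, with stat1a at -0.49 ± 0.22 and stat2 at -0.41 ± 0.28 against irf1b at 0.68 ± 0.27, irf5 at 0.34 ± 0.14, irf8, a factor needed for macrophages and microglia in zebrafish, at 0.32 ± 0.25, and irf2 at 0.09 ± 0.18. None of these passed, and the median of the 10 was -0.41 beside -0.00869 over all genes. With voom irf1b (0.65, adjusted p = 0.0404) and irf5 (0.42, 0.016) were called higher and stat1a lower (-0.50, 0.0283). With the groups compared fitted alone by edgeR, stat1a was also called lower (-0.50, adjusted p = 0.0292). stat1b and irf7 were called whichever library was left out. irf3 or irf9 or both missed the threshold in each of the 10 fits without 1 skin: irf3 alone without skin203 or skin206 (adjusted p = 0.051 and 0.065), irf9 alone without the control skin188 (0.0841) and both without the controls skin185, skin186 or skin187 or the treated skin204, skin205, skin207 or skin208 (0.0538 to 0.126). Without a filter on low counts irf3 and irf9 also missed it (0.0534 and 0.0769). T and NK cell markers, of which 2 of 15 were called higher, summed to 190.3 to 220.9 CPM in controls and 361.9 to 486.1 CPM with rotenone. Of 9 neutrophil markers 3 and of 7 leukocyte markers 1 were called higher, beside 2.96% of all genes, and of 18 macrophage markers none passed. Their part in the members' differences was not tested.

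**Figure D4:**
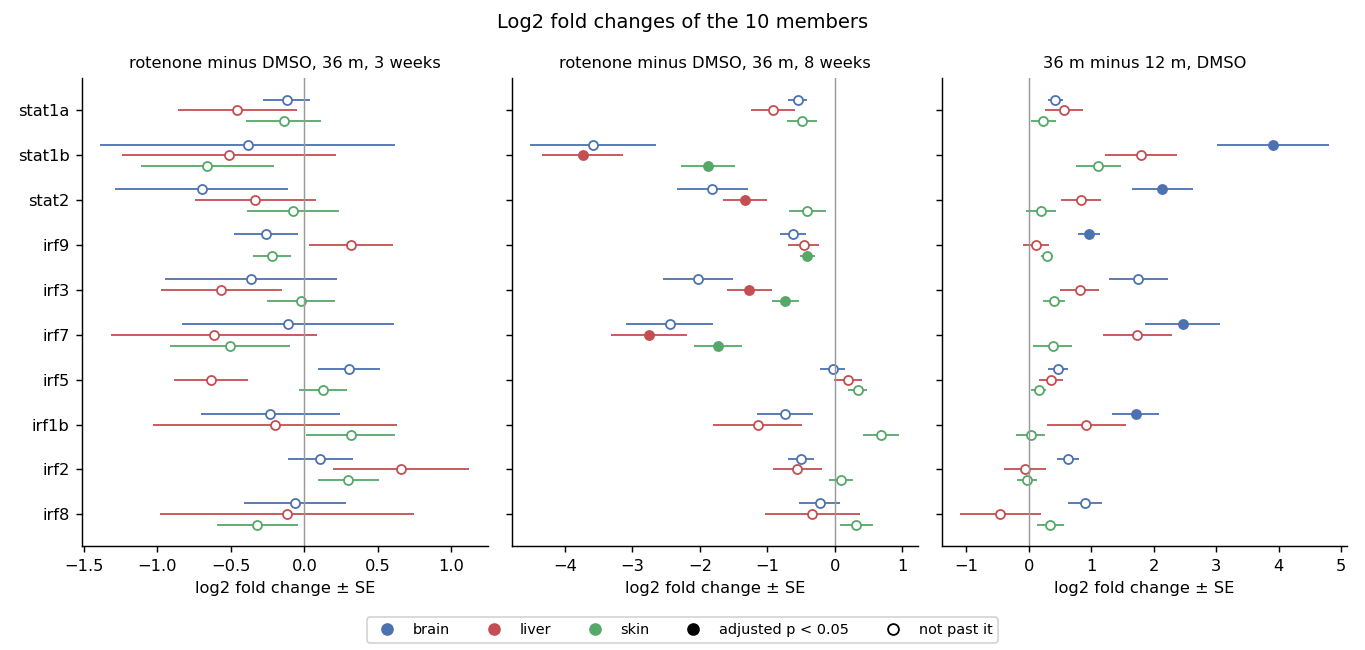
Log2 fold changes with standard errors of the 10 genes for rotenone at 3 weeks, rotenone at 8 weeks and age, with colours for tissues and filled points where the adjusted p was under 0.05. The axes differ between panels. At 8 weeks stat1b lies at -3.58 in brain (open), -3.74 in liver and -1.88 in skin.

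In brain after 8 weeks no member passed the test, in a comparison where 0.0217% of genes were called lower. All 10 had log2 fold changes below 0, with a median of -0.682 beside 0.011 over all genes. Of the members 7 had an unadjusted edgeR p under 0.05, beside 1701 of 23032 genes. For stat1b the controls had 186.9, 197, 15.03 and 14.5 CPM and treated brains 4.16 to 20.3 CPM (median 7.02). The groups overlapped through brain208, and the controls fell into a high and a low pair. The log2 fold change was -3.58 ± 0.93 (edgeR adjusted p = 0.261). irf7 was at -2.45 ± 0.64 (0.275), with 58.7, 58.2, 8.27 and 7.77 CPM in the controls and 4.28 to 8.63 CPM with rotenone. irf3 was at -2.03 ± 0.52 (0.261), stat2 at -1.81 ± 0.52 (0.339), irf9 at -0.62 ± 0.19 (0.362), stat1a at -0.55 ± 0.14 (0.26) and irf2 at -0.50 ± 0.19 (0.496). Without the 4 brains named above, 2 of them controls of this comparison, and with no test, stat1b was at -0.78, irf7 at -0.40, irf3 at -0.69 and stat2 at -0.36. In that setting irf9 was at -0.43, stat1a at -0.23 and irf2 at -0.32. DESeq2 called stat1b, irf7 and irf3 (adjusted p = 0.0228, 0.0249 and 0.0263), and voom called stat1a (0.0322).

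Without the skins of the same fish, again with no test, the log2 fold changes in skin were -1.59 in place of -1.88 for stat1b, -1.43 in place of -1.73 for irf7, -0.63 in place of -0.73 for irf3 and -0.47 in place of -0.41 for irf9. In liver that would leave 1 control at 8 weeks, liver188. The effect of 8 weeks of rotenone was also compared between tissues in that fit of all libraries, without a fish block. No member was called by edgeR, beside 5.54% of genes between liver and brain, 5.41% between liver and skin and 0.0702% between skin and brain. In that order, 0, 1 and 3 members had an unadjusted edgeR p under 0.05, beside 4698, 4520 and 1956 of 25628 genes. For stat1b the difference was -1.79 ± 1.02 between liver and skin (95% interval -3.83 to 0.25) and 1.69 ± 0.98 between skin and brain (interval -0.28 to 3.66).

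The change from 3 to 8 weeks was examined in each arm. The difference between the rotenone effects at 8 and 3 weeks was called for no member in brain (0% of genes), liver (0.0693%) or skin (0%), with stat1b at -3.20 ± 1.41 in brain, -3.22 ± 1.02 in liver and -1.22 ± 0.62 in skin. Single fish moved these values. In brain stat1b was at -1.28 without brain168, and without the 4 brains named above, with no test, it turned to 0.22, stat2 turned from -1.11 to 0.73 and irf7 went from -2.34 to -0.06. In liver stat1b was at -1.83 without liver168, and in skin at -1.98 without skin161 and -0.76 without skin162. At edgeR's unadjusted p under 0.05 the difference held 3, 4 and 2 members in brain, liver and skin. Over all genes the same threshold held 1781 of 23032, 2410 of 20190 and 2410 of 22682. In liver DESeq2 called this difference for stat1b (adjusted p = 0.0354). In treated fish 1 of 10 members was called in brain, near the share of all genes called there (8.96%). It was irf5, lower at 8 than at 3 weeks by -0.65 ± 0.17 (edgeR adjusted p = 0.0299). irf5 missed the threshold without brain170, brain171, brain203 or brain204 (0.0509 to 0.0715), and without brain170 and brain171 together its change was -0.41 (0.189). Summed macrophage and microglia markers in treated brains were at 655.8 to 800.6 CPM at 3 weeks and 293.7 to 502.9 CPM at 8 weeks, with no overlap. Sums of leukocyte, T and NK cell, B cell and neutrophil markers overlapped. Their part in the change of irf5 was not tested. With all treated brains irf7, stat1b and stat1a were at -1.89, -2.32 and -0.36, and missed the threshold (edgeR adjusted p = 0.0564, 0.0824 and 0.0781). They were called as lower without brain169 (0.0267, 0.0393 and 0.0233), and irf7 and stat1a also without brain172 (0.0351 and 0.0475). Without brain206 irf9 was called beside irf5 (0.0494). Without the 4 brains named above, of which only brain168 was treated, irf7, stat1b and stat1a were at -0.65, -0.42 and -0.28, with no test. Treated livers also had 1 called member of 10, near the share of all genes called there (9.25%). It was stat1b, lower by -1.87 ± 0.55 (edgeR adjusted p = 0.0413). At 3 weeks liver168 had 181 CPM of stat1b among values of 15.9 to 31.5. Without liver168 the change was -0.47 (adjusted p = 0.57), and it also missed the threshold without liver170 or the 8-week liver203, liver204, liver205, liver207 or liver208 (0.0566 to 0.0882). Treated skins had none, beside 13.4% of genes.

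In controls of both ages together, irf2 in liver was higher at 8 than at 3 weeks. It was at 7.6, 7.5, 8.99 and 2.86 CPM at 3 weeks and at 23.7, 15.7, 18.8, 17.5, 22.5 and 28.5 CPM at 8 weeks, with no overlap and a log2 fold change of 1.65 ± 0.36 (edgeR adjusted p = 0.0135). It was the only 1 of 10 members called in liver, a share near the 7.35% of all genes called there. None was called in brain (0.122% of genes) or skin (3.26%). Summed hepatocyte markers in 12-month livers were at 91310 to 107100 CPM at 3 weeks and 182800 to 220000 CPM at 8 weeks. B cell markers there were at 31.3 to 43.7 CPM and then 7.84 to 20.7 CPM. At 36 months both sums overlapped between times, and their part in the change of irf2 was not tested. Without liver157, liver159 or liver162 the change of irf2 missed the threshold (adjusted p = 0.0749, 0.0519 and 0.101). Without liver159 irf5 was called at -0.68 (0.0441), and without liver161 stat1a at 1.28 (0.0145) and stat2 at 1.22 (0.0187) were. In skin irf7 at 1.30 (0.00891) and stat2 at 0.99 (0.00954) were called without skin161.

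Against 12-month controls at 8 weeks, fish of 36 months given rotenone had no called member by edgeR or DESeq2 in brain (0.447% of genes by edgeR), liver (1.9%) or skin (0.617%). At an unadjusted edgeR p under 0.05 there were 1, 1 and 3 members, beside 2980 of 23032, 3322 of 20190 and 3068 of 22682 genes. voom called irf5 in liver (adjusted p = 0.038) and irf1b, irf5 and irf7 in skin (0.0258, 0.00811 and 0.0457). The log2 fold change of stat1b was 0.63 ± 1.04 in brain, -0.63 ± 0.60 in liver and -0.56 ± 0.44 in skin. At 3 weeks edgeR called 1 of 10 members in brain, as higher (1.95% of genes called), and 0 in liver (0.842%) and skin (9.46%). At its unadjusted p under 0.05 there were 8, 0 and 0 members, beside 5037 of 23032, 2731 of 20190 and 6050 of 22682 genes. Alternatives were not run for 3 weeks. At both times this comparison changes age and treatment at once. The contrasts of age and of 8 weeks of rotenone share the 36-month controls of 8 weeks, so a high value in those controls moves them in opposite directions.

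Other genes of the pathway were read from lists arranged by their known roles. Over all genes, edgeR called 1.4% higher and 0.573% lower with age in brain. After 8 weeks of rotenone it called 2.17% higher and 5.19% lower in liver, and 2.96% higher and 2.33% lower in skin. The fits and fish were those of the members. Pathway genes were not refitted without single libraries, so their dependence on a few fish was not examined. Of 3 tested interferon genes 1, ifnphi1, rose with age in brain, by 2.27 ± 0.57 (edgeR adjusted p = 0.0408), and none passed in the other comparisons of rotenone or age. Of 7 tested receptor chains in liver 2 were higher after 8 weeks of rotenone (crfb4 at 1.69 ± 0.31 and crfb13 at 1.76 ± 0.34) and 1 was lower (crfb17 at -4.002 ± 1.16). Receptors in brain and skin had no called change. Of 5 Janus and related kinases jak3 rose with age in brain (1.199 ± 0.23) and with 8 weeks of rotenone in skin (1.03 ± 0.22), and jak2b rose with 8 weeks of rotenone in liver (0.52 ± 0.13).

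Of 14 inhibitors of the pathway 1 was called in each of 3 comparisons. A copy of the suppressor of cytokine signalling, SOCS1 (2 of 2), rose with age in brain by 1.79 ± 0.35. The row for usp18, which removes Isg15 and blocks interferon receptors in mammals, fell after 8 weeks of rotenone by 1.70 ± 0.36 in liver and 1.33 ± 0.27 in skin. Of the cytoplasmic and membrane sensors and their adapters, DHX58, which encodes an RNA helicase, rose with age in brain (2.90 ± 0.68) and was lower after 8 weeks of rotenone in liver (-3.33 ± 0.46) and skin (-2.19 ± 0.39). In liver ifih1 also fell (-1.32 ± 0.28), while the adapter myd88 (0.89 ± 0.20) and the receptor tlr3 (1.196 ± 0.33) rose. That made 1 of 23 sensors and adapters higher in ageing brain, 2 of 22 higher and 3 lower in treated liver, and 1 of 23 lower in treated skin.

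Among the family members outside the 10, irf10 was at 1.88 ± 0.38 with age in brain and at -1.83 ± 0.40 in liver and -1.28 ± 0.22 in skin after 8 weeks of rotenone, and all 3 changes passed. The other Stat called was stat4, at 1.03 ± 0.22 with age in brain. It neighbours stat1b in the RefSeq annotation, and whether the counting used strand is not given. Of 29 antiviral genes induced by interferon, 15 were called higher with age in brain, beside 1.4% of all genes. After 8 weeks of rotenone 23 were lower in liver (5.19% of all genes). In skin 15 were lower (2.33%) and 1 was higher (2.96%). With age in liver 2 were called higher, ifit9 (3.92 ± 0.69) and ifit10 (3.23 ± 0.65), beside 0.5% of all genes. With age in skin ifi27.1 was higher (1.17 ± 0.31) and mxd lower (-1.13 ± 0.25), beside 1.15% and 1.26%. No gene of the other pathway lists passed with age in liver or skin. Among the antiviral genes, mxb, which encodes a GTPase, was at -5.79 ± 0.87 in liver and -2.48 ± 0.48 in skin after 8 weeks of rotenone. After the same treatment isg15, a ubiquitin-like modifier, was at -2.97 ± 0.52 in skin. With age in brain pkz, a kinase that binds foreign nucleic acid, was at 2.62 ± 0.55. Antigen presentation genes that respond to interferon gamma rose with age in brain in 7 of 19 cases, among them b2m (1.24 ± 0.21) and ciita (1.04 ± 0.17), and in no case passed the test for rotenone.

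The genes most like each member across the 68 libraries were found from log2 CPM with the mean of each tissue removed. The libraries share fish and groups, so these correlations describe the libraries only. stat1b came with mov10b.1 (r = 0.943), mxa (0.939) and mxb (0.927), and irf3 with mov10b.1 (0.899), phf11 (0.843) and pkz (0.834). cmpk2 was the nearest to irf7 (0.905) and stat2 (0.913) and followed ZNFX1 (0.779) for stat1a (0.747). irf9 had irf10 (0.77) and ifi35 (0.744). The genes nearest to irf8 were rgs18 (0.871), lcp1 (0.868) and ptprc (0.867), of which the last 2 are leukocyte markers, and those nearest to irf1b were etv7 (0.828), the T cell receptor gene TRBC2 (0.822) and irig (0.796). irf2 came with tbcela (0.808), ercc5 (0.766) and pir (0.762), and no gene reached 0.67 for irf5, where rnaseka led (0.668). Among the members themselves, stat1b correlated with irf3 (0.886), irf7 (0.858) and stat2 (0.854), and irf1b with irf8 (0.765).

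Libraries of different tissues that carry the same number in the labels were taken to come from the same fish, which allowed members to be compared across tissues of a fish after group means were removed. Of 30 correlations, for 10 genes and 3 pairs of tissues, none passed an adjusted p of 0.05 by permutation within groups. The highest was stat2 in brain and liver, with Pearson's r = 0.766 (permutation p = 0.00477, adjusted 0.116) and Spearman's rho = 0.747 (permutation p = 0.00681, adjusted 0.0954) over 20 fish, and r = 0.678 without the 2 fish farthest from the median in brain. Without the 4 fish with high stat1b in brain, and with no test, r was 0.494 over the 14 fish whose groups then still held more than 1. For stat1b and irf7 the brains fell into 2 clusters, so no pooled value is given, and since their own levels set the clusters, the relation within them was not tested. The 4 fish with high stat1b in brain had 142, 181, 183.97 and 237 CPM in liver, where 1 other, liver188, was as high at 269 CPM and the rest were at or under 78.9 CPM. In skin they had 202.8, 118, 186.7 and 188.4 CPM, and 1 other, skin188 with 148 CPM, lay within that range.

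**Figure D5:**
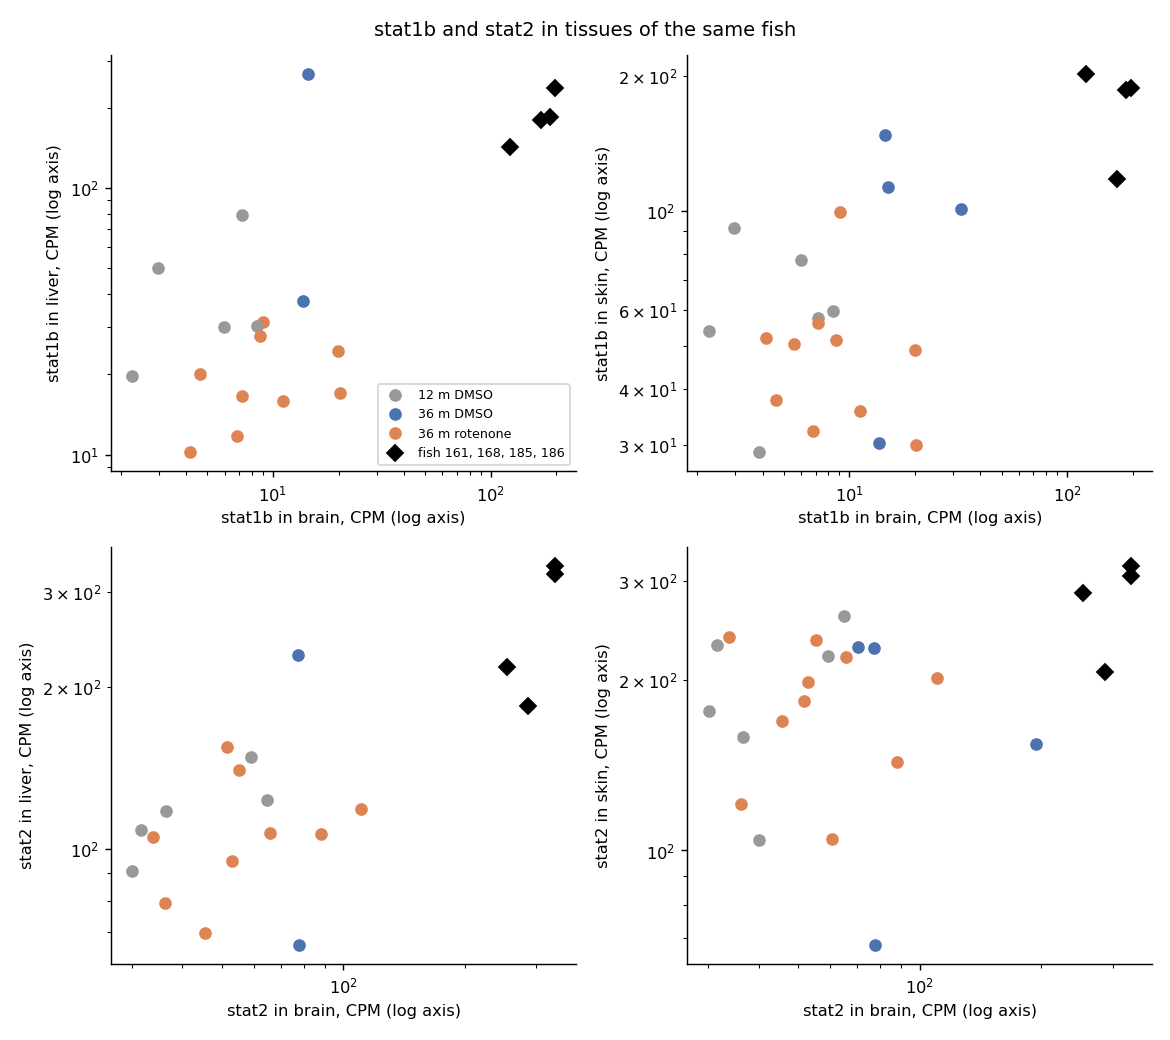
CPM of stat1b (top) and stat2 (bottom) in brain against liver (left, 20 fish) and skin (right, 24 fish) of the same fish, on log axes, with colours for age and treatment and diamonds for the fish of brain161, brain168, brain185 and brain186. The fish of liver188 is the circle with high stat1b in liver (269 CPM) and low stat1b in brain (14.5 CPM).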

How the data were processed

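Per the labels' protocols, RNA was extracted with a phenol reagent and libraries were made with a TruSeq kit. The authors deposited a table of counts, whole numbers for each gene in each library, and a table of RPKM. The submitters' processing notes name CASAVA 1.8.2. Aligner, counter, strand use and build: not given in the sources used here. Genes with a bracket in their symbol are uncertain, because the counting could have split their reads between copies.

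Differences were tested on the counts with edgeR 4.0.16 (R 4.3.3). The filter filterByExpr, with a minimum count of 10 and a minimum total of 15, kept 23032 genes in brain, 20190 in liver and 22682 in skin. The 6 groups of a tissue shared a robust quasi-likelihood fit scaled by TMM, and 2-sided p-values were adjusted by Benjamini-Hochberg with a threshold of 0.05. Contrasts between tissues came from a fit of all 68 libraries and 25628 genes. That fit ignored which libraries came from the same fish, and a fish block was used only as an alternative. Log2 CPM had a prior count of 2. Levels between genes used the deposited RPKM. Correlations across tissues used 100000 permutations within groups.

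Genes named beside the members were, by list, tissue and contrast, up to 4 called genes with the smallest p, and the 3 genes most correlated with each member among 14255 tested in every tissue. The members and lists were chosen with earlier results of these data known. The tests were checked on simulated counts. Of genes set to differ 4-fold, 45.9% were recovered in liver for 8 weeks of rotenone and 47.7% for age. In brain these shares were 77.7% and 89.7%, and in skin 79.2% and 78.5%. Of genes set to differ 2-fold, 8.99% and 12.4% were recovered in liver, 44.3% and 55.9% in brain, and 41.4% and 36.4% in skin. A gene that was not called could therefore still differ in any tissue, above all in liver. The changed genes were drawn at random, and clusters of fish like those for stat1b and irf7 in brain were not simulated. The shares need not hold for such genes. Alternatives were DESeq2 1.42.0, its size factors, no filter, voom of limma 3.58.1, groups fitted alone, replicate and fish blocks, and libraries left out. Scaling by total counts only, and all alternatives for the change over time in treated fish, for treated against 12-month fish and for the age effect between tissues, were added after the data were seen.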

Additional observations from a re-analysis of the deposited data

Results flagged for a closer look

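Groups of 4 to 6 libraries were examined member by member, in 80 combinations. Single libraries stood far from the rest of their group in 8 of these. The cut-off assumes normally distributed values and was applied to linear CPM, and the members were counted in the same libraries. No rate expected by chance is therefore given. In brains given rotenone for 3 weeks, brain168 stood above the others for stat1b (169.7 CPM against 5.6 to 19.9), irf7 (75.01 CPM against 8.18 to 11.7) and irf3 (24.1 CPM against 3.67 to 8.53). liver168, of the same fish, stood above its group for stat1b (180.7 CPM against 15.9 to 31.5). In the same treatment group brain171 stood above the others for irf5 (8.81 CPM against 4.80 to 5.76) and liver171 for irf8 (12.4 CPM against 2.44 to 3.93). In brains given rotenone for 8 weeks, brain208 stood above the others for stat1b (20.3 CPM against 4.16 to 8.74). In skins of 36-month controls at 8 weeks, skin187 stood below the others for irf8 (11.2 CPM against 14.6 to 15.2). The effect of age on irf9 differed between liver and brain, by -0.94 on the log2 scale for liver minus brain. This difference was an interaction in the fit of all libraries (edgeR adjusted p = 0.026).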

How the results depend on the processing

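Counts of called members with an alternative follow the main count. With DESeq2 they went from 5 to 9 for age in brain (all genes 455 to 970), 0 to 3 for rotenone at 8 weeks in brain (7 to 122), 0 to 2 for age in liver (1095 genes with it) and in skin (546 to 1737), and 0 to 1 for the 8-week minus 3-week rotenone effect in liver (14 to 393). With voom they went from 5 to 10 for age in brain (455 to 1969) and 0 to 1 for rotenone at 8 weeks in brain (7 to 133). For rotenone at 8 weeks in skin they went from 4 to 7 (1200 to 4531), with irf1b and irf5 gained as higher and stat1a as lower. For time in control livers they went from 1 to 2. That last count was 0 with its groups fitted alone (1483 to 0 over all genes). Without the filter, rotenone at 8 weeks in skin had 2 of 4 calls left (881 genes). Leaving out 1 library gave 1 to 7 for age in brain, 2 to 4 and 2 to 3 for rotenone at 8 weeks in liver and skin, and 0 to 3 and 0 to 2 for time in control livers and skins, and changed no other count that was planned. With total counts only, skin minus liver had 7 calls in place of 1 and the liver minus skin rotenone effect 1 in place of 0, and fold changes reversed for irf8 (0.081) and stat1a (1.09) in brain minus liver and irf2 (0.891), irf3 (1.14) and irf9 (1.11) in skin minus liver. For the comparisons whose alternatives were added after the data were seen, calls over time in treated brains went from 1 to 3 with DESeq2, 2 with voom and 0 with groups fitted alone or without the 5 libraries that stood apart, those in treated livers from 1 to 0 with groups fitted alone or no filter, those for treated against 12-month livers from 0 to 1 with groups fitted alone or voom and against 12-month skins from 0 to 3 with voom, and those for the age effect from 1 to 0 in liver minus brain with total counts only and from 0 to 1 with the fish block and 3 with voom in skin minus brain. Leaving out 1 library gave 0 to 4 for treated brains, 0 to 1 for treated livers and 0 to 2 for the age effect in liver minus brain. The cause was not tested in any of these.

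The replicate numbers in the titles do not pair fish, since deviations of same-numbered libraries correlated at -0.00311 in brain, -0.0289 in liver and -0.0372 in skin on average. With the replicate number as a block, calls were 3 for age in brain (297 genes), 0 for rotenone at 8 weeks in liver (21), 1 in skin (668), 0 for time in control livers (145), and 0 for time in treated brains (1347) and livers (142).

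Depth was 24.1 M counts or more in every library, and all members had counts in all libraries, so no member's result rests on a count of 0. This does not cover the pathway and marker genes.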
